A study of Mus musculus with 11 samples.

Results

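The histone genes of the Hist clusters were taken as every gene of the array whose name in the scanner files begins with Hist1h, Hist2h, Hist3h or Hist4h. This name rule found 49 genes among 31444 gene names, measured by 54 of 39383 probes, and used no signal. They comprise 6 linker histone H1 genes, 14 H2a, 12 H2b, 8 H3 and 9 H4 genes. The Hist1 cluster on chromosome 13 holds 36 of them, the Hist2 cluster on chromosome 3 holds 9, the Hist3 cluster on chromosome 11 holds 3, and Hist4h4 lies alone on chromosome 6. The brightest probe stood for a gene, and 48 of the 49 genes were measured well enough to test. Hist1h1d, above background on 1 of 11 arrays, was the exception.

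RNA came from lymph node tumours of mice of the Black 6 strain with the genotype c-myc-3'RR/p53+/-, meaning a c-myc transgene under the immunoglobulin heavy chain 3' regulatory region and 1 p53 allele left. Plasma cell lymphoma (PCL) gave 4 tumours, mantle cell lymphoma (MCL) gave 3 and Burkitt lymphoma (BL) gave 4. All carried this genotype and were labelled as mature B cells, and no tissue without the transgene was analysed here. Nothing in the labels assigns each tumour to a separate mouse, so the p-values describe only how these samples scatter, which may be technical. One slide held all arrays of a type, so type and slide cannot be told apart. All 10 B cell markers were above background on all 11 arrays. In bulk tissue, fewer cells of a kind and less RNA per cell cannot be told apart.

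Core histones H2A, H2B, H3 and H4 form the spool on which DNA is wound, and linker histone H1 binds where DNA enters and leaves it. The genes of these clusters are mostly transcribed in S phase, when new DNA must be packaged, and their mRNAs end in a short hairpin, bound by the stem-loop binding protein Slbp, in place of a poly(A) tail. Some of these genes also give polyadenylated transcripts, which have been described in differentiating and non-dividing cells. Labelling kits of the QuickAmp kind, the kind named in the labels, commonly prime from poly(A), so signals of these genes need not scale with total histone mRNA.

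Probe sequences show which transcripts the signals can come from, and are credited to the array design in the scanner files. The hairpin was found whole in the probes of 6 genes, printed here as windows of 30 bases with the 16 bases of the hairpin in capitals.
Hist2h2aa1: taaaaaGGCTCTTTTCAGAGCCacccactg
Hist2h2bb: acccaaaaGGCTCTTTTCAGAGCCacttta
Hist1h3a: aattaaccaaaGGCTCTTTTCAGAGCCaca
Hist1h3i: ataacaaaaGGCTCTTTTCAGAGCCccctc
Hist1h3g: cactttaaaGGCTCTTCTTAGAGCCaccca
Hist1h4m: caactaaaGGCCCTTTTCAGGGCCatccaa
The first 4 share the hairpin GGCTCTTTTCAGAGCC, which no probe of a gene outside the Hist names held (4 of 39383 probes in all). Its stem has 6 base pairs and its loop 4 bases. In the probe of Hist2h2aa1 the hairpin starts at base 7 and 38 bases lie beyond it, whereas in the other 5 probes between 3 and 6 bases lie beyond it. Most bases targeted by the Hist2h2aa1 probe are therefore downstream of the hairpin.

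Coding sequences of the H2a genes are nearly alike, and 7 H2a probes end at or near the stop codon. Of these, 4 that start and end at the same codons are printed here, with capitals where a base differs from the probe of Hist1h2ak.
Hist1h2ak: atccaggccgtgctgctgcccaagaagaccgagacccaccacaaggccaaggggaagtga
Hist1h2af: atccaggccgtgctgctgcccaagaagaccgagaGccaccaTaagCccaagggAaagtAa
Hist1h2an: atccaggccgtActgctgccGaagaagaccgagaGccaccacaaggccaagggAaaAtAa
Hist2h2aa2: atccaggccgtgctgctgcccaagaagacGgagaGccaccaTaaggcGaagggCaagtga
The probe of Hist1h2af differed from that of Hist1h2ak at 5 of 60 bases, that of Hist1h2an at 6 and that of Hist2h2aa2 at 5. Each of the 7 probes shared between 44 and 55 bases with another of them, and accessions of up to 4 RefSeq genes stood behind a single probe. Their signals therefore cannot be assigned to single genes, and they are described together below.

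Signals are given as the log2 of the processed intensity minus the array's 75th percentile, and a difference is the first-named type minus the second. A gene was called where its p from limma's moderated test, adjusted by Benjamini-Hochberg across the 20181 genes tested, was below 0.05. The 75th percentile of an array lay between 1067 and 1632 intensity units, 55.5% to 62.8% of spots were above background and RNA integrity numbers were 8 to 10. PCL1 stood apart from its type: its mean correlation with the other PCL over all genes was 0.945, against 0.977 among those, and 0.952 with the BL. MCL1 had the lowest signal of all 11 tumours for 30 of the 48 tested Hist genes (62.5%), against 12.7% of all genes, although genes whose probes share bases are not independent in this count. Each of the 11 tumours was also left out in turn, and the calls this changed are given with each called gene.

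**Figure D1:**
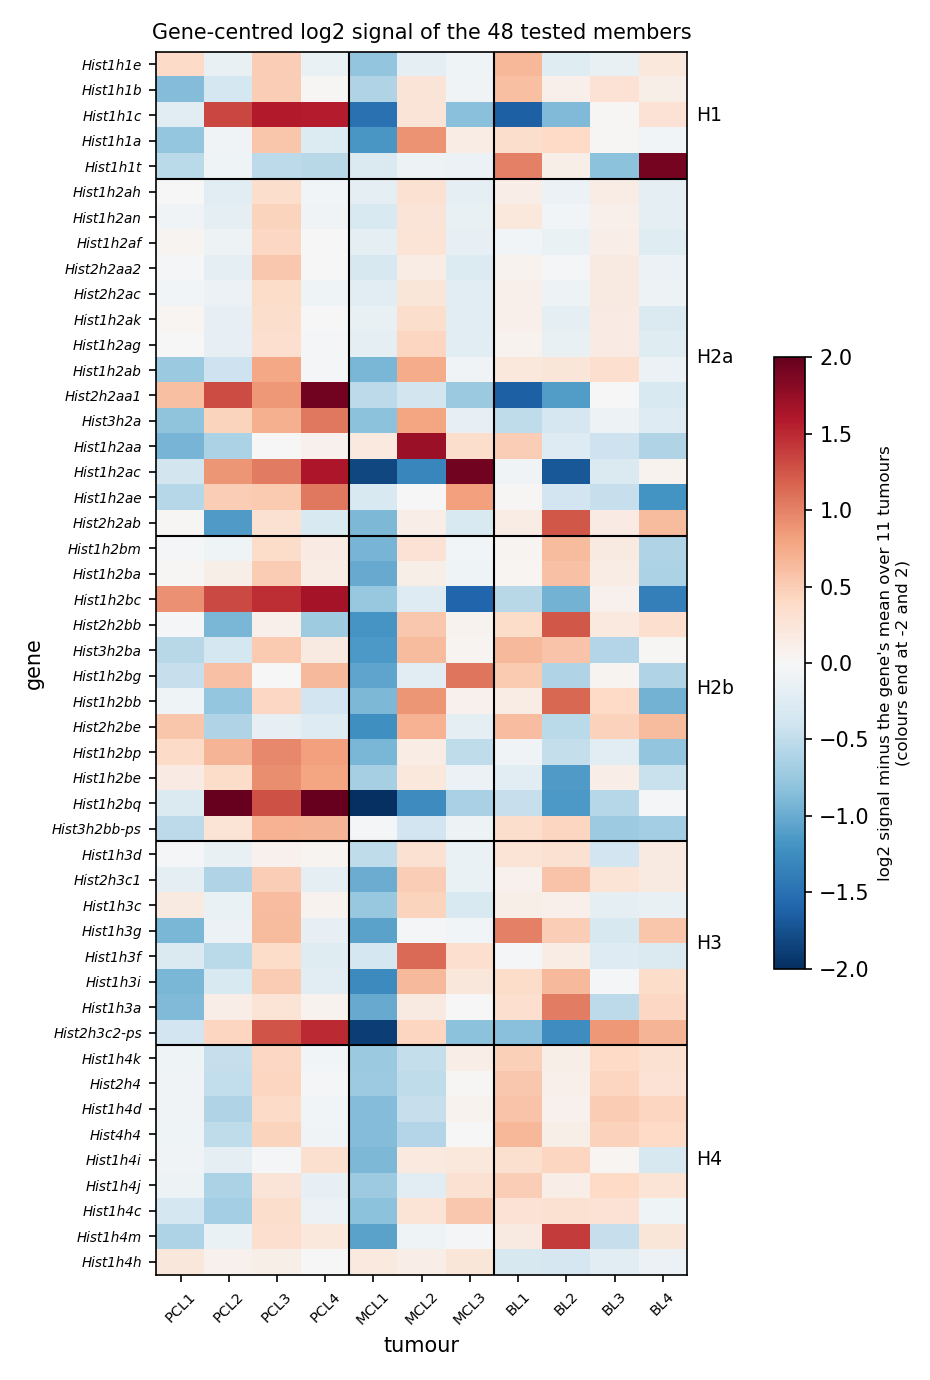
Signals of the 48 tested Hist genes (down the page, by class and then by mean level) in the 11 tumours (across, by type), as the log2 signal minus the gene's own mean over the tumours; colours end at -2 and 2. The MCL1 column is blue for most genes, while red cells for Hist1h2bc, Hist1h2bp, Hist1h2bq and Hist2h2aa1 fill the PCL columns, except that Hist1h2bq is pale in PCL1.

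Between PCL and MCL, 4 of the 48 Hist genes were called, all of them higher in PCL (8.33%, against 6.85% of all genes in either direction, made up of 2.11% higher in PCL and 4.75% lower). They were the H2B genes Hist1h2bc, Hist1h2bp and Hist1h2bq and the H2A gene Hist2h2aa1. Between PCL and BL, Hist1h2bc alone was called, also higher in PCL (2.08%, against 0.659% of all genes in either direction, made up of 0.456% higher in PCL and 0.203% lower). Both comparisons use the same PCL tumours. In a test for any difference among the 3 types, Hist1h2bc, Hist1h2bp and Hist2h2aa1 were called (6.25%, against 8.37% of all genes). With so few genes called, these shares rest on 1 to 4 genes each.

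Hist1h2bc encodes a core histone H2B, and its probe lies at chr13:23784254-23784313 on the plus strand of mm9. It had 3.28, 3.68, 3.84 and 4.03 log2 units in the 4 PCL, against 1.60, 2.10 and 0.78 in the 3 MCL and 1.80, 1.42, 2.45 and 1.00 in the 4 BL. All PCL were above every other tumour. The mean was 3.71 ± 0.32 in PCL (SD, n = 4), 1.49 ± 0.67 in MCL (SD, n = 3) and 1.67 ± 0.61 in BL (SD, n = 4). The signal was 4.64-fold higher in PCL than in MCL (log2 difference 2.21, SE 0.39, limma adjusted p = 0.0138) and 4.10-fold higher in PCL than in BL (2.04, SE 0.36, limma adjusted p = 0.0429). Leaving out 1 tumour at a time, the PCL and MCL difference was called in 11 of 11 fits (1.86 to 2.52, limma adjusted p = 0.0108 to 0.0497). The PCL and BL difference was called in 4 of 11, those without PCL1, MCL2, MCL3 or BL3 (1.81 to 2.30 over all 11, limma adjusted p = 0.0181 to 0.135), and not without MCL1 (limma adjusted p = 0.0546). Of 20 alternative settings, these included, the PCL and MCL difference kept its call in 19, and the PCL and BL difference in 11.

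Hist2h2aa1 encodes a core histone H2A of the Hist2 cluster, and its probe, printed above around the hairpin, lies at chr3:96049949-96050008 on the plus strand of mm9. It had 2.36, 3.06, 2.63 and 3.68 log2 units in PCL, against 1.23, 1.40 and 1.01 in MCL and 0.13, 0.64, 1.75 and 1.45 in BL. Every PCL was again above every MCL and every BL. The signal was 3.30-fold higher in PCL than in MCL (1.72, SE 0.42, limma adjusted p = 0.0393), while the difference of 1.94 from BL missed the threshold (SE 0.39, limma adjusted p = 0.0579). Without PCL1 both comparisons were called, with differences of 1.91 and 2.13 and limma adjusted p of 0.0244 and 0.0222. Of the 11 fits that leave out 1 tumour, 4 called the difference from MCL, those without PCL1, BL1, BL3 or BL4 (1.47 to 1.91 over all 11, limma adjusted p = 0.0244 to 0.107).

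The other 5 genes whose probes hold the whole hairpin had nothing of this size. Their differences ran from -0.20 (Hist2h2bb) to 0.34 (Hist1h4m) between PCL and MCL and from -0.92 (Hist2h2bb) to -0.39 (Hist1h4m) between PCL and BL, and none was called. Another region was read by the probe named for Hist2h2aa2, the near twin of Hist2h2aa1. This probe lies at the coding end, at chr3:96049837-96049896 on the plus strand of mm9, and its accessions name both genes. That place is just upstream of the Hist2h2aa1 probe on the same strand, whereas RefSeq puts Hist2h2aa2 on the minus strand of GRCm38.p6. Its signal is therefore not that of the twin alone and may be that of Hist2h2aa1 itself. The probe had 8.07, 7.90, 8.62 and 8.08 log2 units in PCL, against 7.78, 8.24 and 7.82 in MCL and 8.16, 8.07, 8.27 and 7.98 in BL. The 3 types overlapped there, and the difference between PCL and MCL was 0.23 (SE 0.21, limma adjusted p = 0.545).

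Hist1h2bp, a further H2B gene, has its probe at chr13:21880994-21881053 on the plus strand of mm9. It had -2.22, -1.93, -1.64 and -1.79 log2 units in PCL, against -3.52, -2.45 and -3.12 in MCL and -2.68, -3.08, -2.84 and -3.39 in BL. PCL did not overlap with MCL or BL. The signal was 2.20-fold higher in PCL than in MCL (1.14, SE 0.28, limma adjusted p = 0.0398), and the difference of 1.10 from BL missed the threshold (SE 0.26, limma adjusted p = 0.0778). Of the 11 fits that leave out 1 tumour, 4 called the PCL and MCL difference, those without PCL1, MCL2, BL1 or BL4 (0.89 to 1.42 over all 11, limma adjusted p = 0.0274 to 0.109), and the fit without PCL1 also called the difference from BL.

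Hist1h2bq had the largest difference of the set and the largest spread within types. Its probe, at chr13:21929214-21929273 on the plus strand of mm9, also carries an accession of a second gene. RefSeq puts Hist1h2bq on the minus strand of GRCm38.p6, so the place given may be that of the second gene. The signal is therefore not certain to be that of 1 gene, or of Hist1h2bq. It had -3.77, -0.59, -2.21 and 0.29 log2 units in PCL, against -6.997, -4.73 and -4.12 in MCL and -3.95, -4.62, -4.05 and -3.52 in BL. PCL1 was the lowest PCL and lay within the range of the BL, and MCL1 was not above background, so MCL was measured on 2 of 3 arrays. The PCL and MCL difference of 3.71 (SE 0.94, limma adjusted p = 0.0448) became 2.86 without MCL1 (limma adjusted p = 0.12) and 1.97 with another background correction and quantile normalization (limma adjusted p = 0.0778). The difference from BL was 2.46 (SE 0.87, limma adjusted p = 0.184). Of the 11 fits that leave out 1 tumour, the one without PCL1 alone called Hist1h2bq, by 4.45 from MCL (limma adjusted p = 0.0118) and by 3.20 from BL (limma adjusted p = 0.0447).

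**Figure D2:**
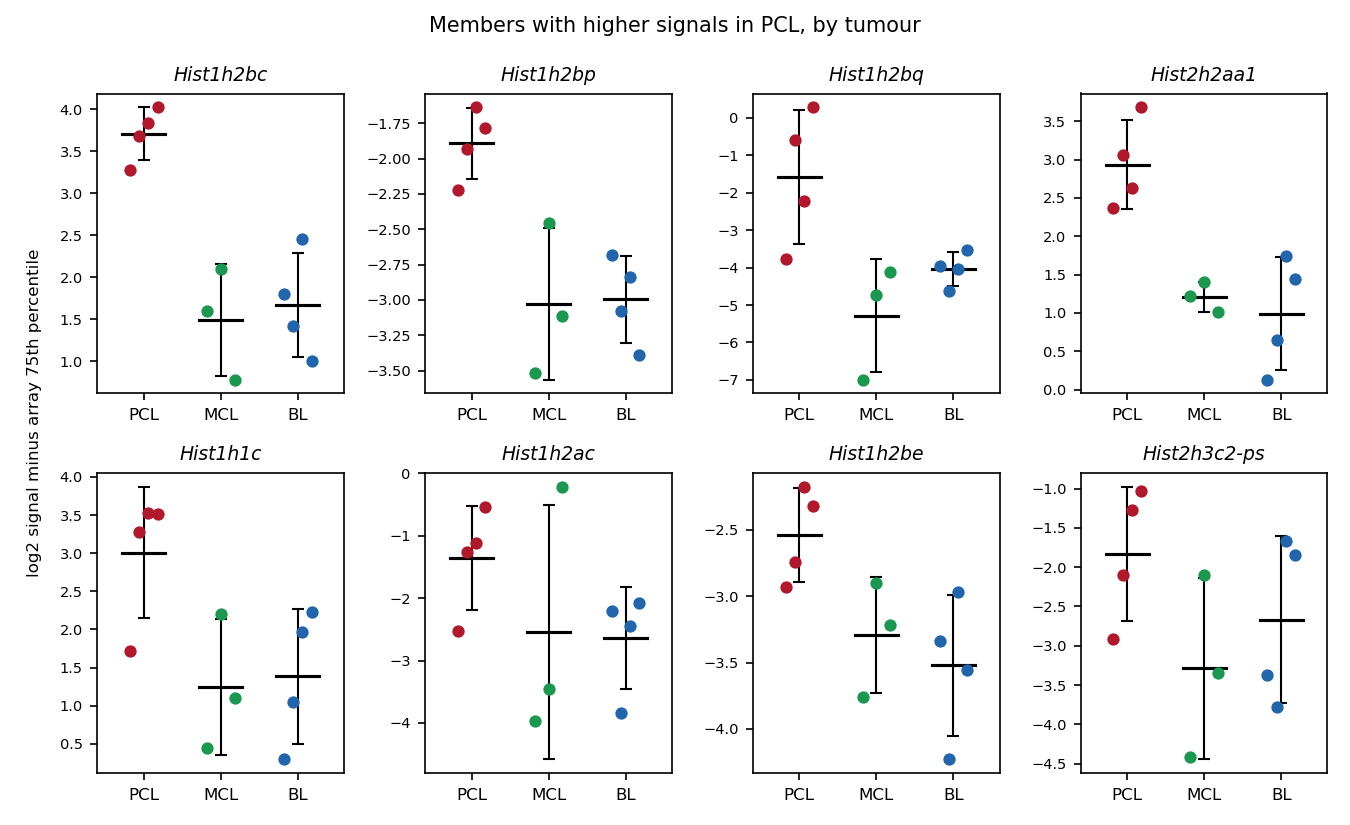
Log2 signal minus the array's 75th percentile (vertical axis, own scale for each gene) of 8 Hist genes by lymphoma type; points are tumours, horizontal bars the mean and error bars the SD. In the top row all PCL points of Hist1h2bc, Hist1h2bp and Hist2h2aa1 lie above those of MCL and BL; in the bottom row the types overlap, apart from Hist1h2be, where all PCL points lie above those of BL.

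Of the 48 genes, 23 had positive differences from both types, of which 4 were called in at least 1 comparison and 19 in neither, and 4 of those 19 are described here. Hist1h1c, which encodes the linker histone H1.2, had 1.72, 3.27, 3.53 and 3.51 log2 units in PCL, against 0.44, 2.20 and 1.10 in MCL and 0.30, 1.05, 1.96 and 2.23 in BL. PCL1 lay among the MCL and BL values and the other 3 PCL above all of them. The differences were 1.76 from MCL (SE 0.61, limma adjusted p = 0.112) and 1.62 from BL (SE 0.57, limma adjusted p = 0.178), and without PCL1 the difference from MCL was 2.19 and was called (limma adjusted p = 0.0363). 

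Hist1h2ac, an H2A gene, had -2.52, -1.26, -1.11 and -0.54 log2 units in PCL, against -3.97, -3.46 and -0.21 in MCL and -2.21, -3.84, -2.44 and -2.07 in BL. MCL3 was the highest of all tumours and MCL1 the lowest, so that the MCL spanned the whole range, and the differences of PCL were 1.19 from MCL (SE 0.86) and 1.29 from BL (SE 0.79). Hist2h3c2-ps, named as an H3 pseudogene in the files, differed by 1.46 from MCL (SE 0.71) and 0.84 from BL (SE 0.65), with overlap. Hist1h2be, an H2B gene, had -2.93, -2.74, -2.17 and -2.32 log2 units in PCL, against -3.76, -2.90 and -3.22 in MCL and -3.33, -4.23, -2.97 and -3.55 in BL. Every PCL was above every BL, by 0.98 on average (SE 0.31, limma adjusted p = 0.137), and PCL overlapped with MCL.

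Markers of other cells differed between the tumours. Of 13 macrophage markers 11 could be tested, none was at background on all arrays, and 1 was called higher in PCL than in MCL. Their summed level was 1.21, 4.72, 3.39 and 3.99 log2 units in PCL1 to PCL4, against 2.20, 0.91 and 0.74 in MCL and 1.57, 1.55, 3.00 and 1.46 in BL. The summed level of 8 plasma cell markers was 5.10, 6.05, 5.99 and 6.04 in PCL, against 5.43, 4.90 and 5.09 in MCL and 4.99, 5.07, 5.24 and 5.32 in BL. Of 8 granulocyte markers 1 was called, Elane, lower in PCL than in MCL. It went against the rest of its list, as the other 7 of the 8 differences between PCL and MCL were positive, and the median was 1.55. The summed level of the 8 was -0.10, 4.495, 2.55 and 3.14 in PCL, against 0.69, 1.92 and 1.33 in MCL and -0.36, 2.84, 1.33 and 3.39 in BL. PCL1 was the lowest PCL for the macrophage, plasma cell and granulocyte sums, and also for Hist1h2bc, Hist2h2aa1, Hist1h2bp, Hist1h2bq and Hist1h1c. It was also lowest for the sum of the 10 B cell markers, at 7.966 against 8.425 to 8.849 in the other PCL. The same held for 3 erythroid markers (-0.1636 against 0.4973 to 2.498) and barely for 8 endothelial and stromal markers (2.268 against 2.269 to 3.147). By the T cell sum PCL1 was the highest PCL, at 3.093. Low sums in PCL1 were thus not particular to 1 kind of cell. Of 10 T cell markers 1 was called, Cd4, lower in PCL than in MCL. Their summed level was 2.34 to 3.09 in PCL, against 3.54 to 4.66 in MCL and 2.59 to 4.31 in BL. Every PCL was below every MCL by this sum, which follows the brightest markers. Between PCL and MCL 4 of the 10 differences were positive and 6 negative. The median of the gene-centred signals overlapped, at -0.31 to -0.004 in PCL and -0.09 to 1.07 in MCL. The summed level of 8 endothelial and stromal markers was 2.27 to 3.15 in PCL, against 2.64 to 3.05 in MCL and 2.06 to 2.65 in BL. The part of any of these cells in the signals of the Hist genes was not tested.

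Over all 48 Hist genes the types differed little. The median difference was 0.17 between PCL and MCL, where 37 of 48 were positive, against -0.03 over all genes. It was -0.03 between PCL and BL, with 24 of 48 positive, against 0.09 over all genes, and -0.21 between MCL and BL, with 12 of 48 positive, against 0.06. These counts move with the scaling: between PCL and BL 13 of 48 were positive with scaling to the array median (median -0.30, against -0.175 over all genes), and 18 of 48 both with quantile normalization and in the authors' values. Between MCL and BL 4 of 48 were positive with scaling to the array median, 8 with quantile normalization and 9 in the authors' values, and between PCL and MCL 37, 35 and 34. The tumour MCL1 carried the comparisons with MCL: without it 21 of 48 were positive between PCL and MCL, with a median of -0.03, and 25 of 48 between MCL and BL, with a median of 0.04. Tumours did not overlap for 5 genes between PCL and MCL (10.4%, against 22.8% of all genes), 4 with PCL above (9.11% of all genes) and 1 with PCL below (13.7% of all genes). They did not overlap for 6 genes between PCL and BL (12.5%, against 11% of all genes), 5 with PCL above (6.62% of all genes) and 1 with PCL below (4.4% of all genes). Between MCL and BL there were 5 such genes (10.4%, against 17.7% of all genes), 1 with MCL above (13.9% of all genes) and 4 with MCL below (3.73% of all genes).

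**Figure D3:**
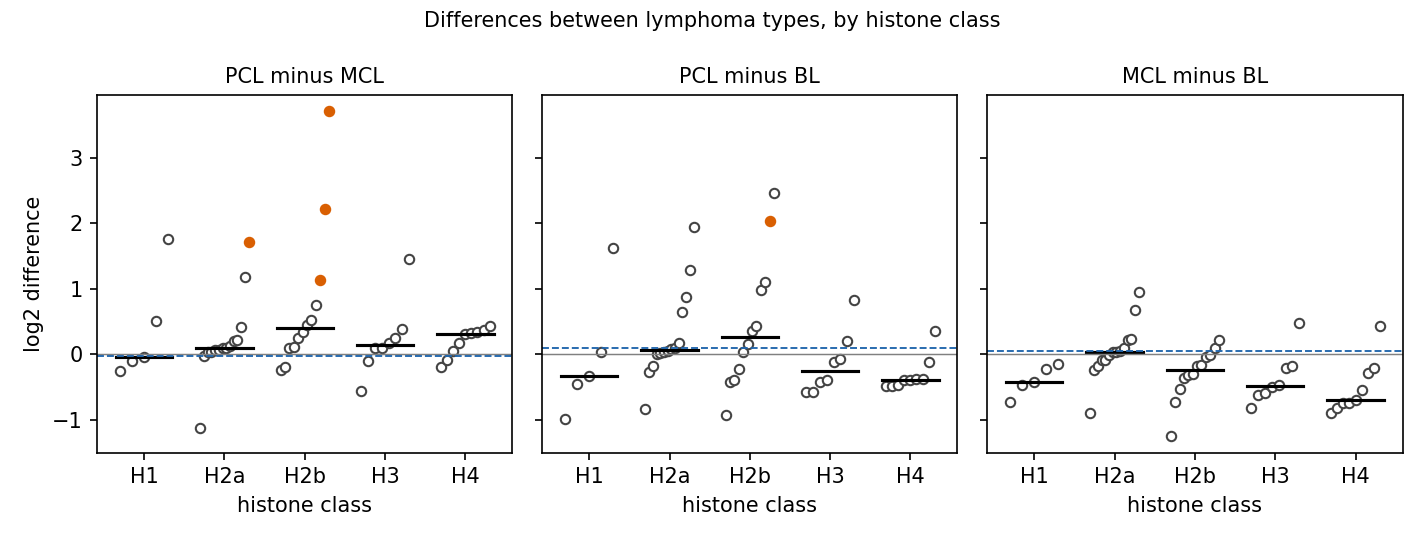
Log2 differences of the 48 Hist genes (points, vertical axis) by class (horizontal axis) for PCL minus MCL, PCL minus BL and MCL minus BL; filled points passed the adjusted p of 0.05, black bars are class medians and the dashed line is the median of all genes. The filled points are 3 H2b genes and 1 H2a gene between PCL and MCL and 1 H2b gene between PCL and BL, and 8 of 9 H4 points lie below 0 between MCL and BL.

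By class, 3 of the 4 genes called between PCL and MCL were H2b genes, 1 of them Hist1h2bq, whose probe is not certain to read that gene. Between PCL and MCL the 12 H2b genes had a median difference of 0.40, with 10 positive and 3 called (25%, against 6.85% of all genes). Without MCL1 the median was 0.087, with 6 of 12 positive, and Hist1h2bc alone was called. Between PCL and BL the H2b median was 0.26, with 8 positive and 1 called (8.33%, against 0.659% of all genes). That median was 0.11 in the authors' values and -0.0075, with 6 of 12 positive, with scaling to the array median. These H2b shares rest on 3 genes and 1 gene. The 14 H2a genes had medians of 0.10 between PCL and MCL and 0.06 between PCL and BL. In the first comparison 1 was called (7.14%, against 6.85% of all genes) and in the second 0 (against 0.659%). Without MCL1 the first median was -0.017, and with scaling to the array median the second was -0.20. The remaining H2B genes were not called. Hist1h2bm had 3.90, 3.85, 4.30 and 4.09 log2 units in PCL, against 3.01, 4.22 and 3.87 in MCL and 3.98, 4.56, 4.12 and 3.33 in BL, with differences of 0.34 from MCL (SE 0.34) and 0.04 from BL (SE 0.31). Hist3h2bb-ps, an H2B pseudogene, was above background on 8 of 11 arrays and differed by 0.46 from MCL (SE 0.38).

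Among the H3 genes, 0 of 8 were called in either comparison or between MCL and BL, where 7 of 8 differences were negative with a median of -0.48, or -0.03 without MCL1. Hist1h3d had 5.62, 5.50, 5.73 and 5.70 log2 units in PCL, against 5.14, 5.96 and 5.51 in MCL and 5.92, 5.95, 5.27 and 5.84 in BL, and its SD of 0.27 over the 11 tumours was the smallest of the class. Its probe carries accessions of 4 RefSeq genes. Hist2h3c1 had 2.45, 2.02, 3.12 and 2.45 log2 units in PCL, against 1.63, 3.11 and 2.49 in MCL and 2.71, 3.20, 2.91 and 2.80 in BL. Both genes overlapped between all types, with MCL1 the lowest tumour in each.

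Hist1h3f, the H3 gene with a positive difference between MCL and BL, had -0.15, -0.40, 0.52 and -0.09 log2 units in PCL, against -0.21, 1.28 and 0.49 in MCL and 0.13, 0.30, -0.11 and -0.14 in BL. MCL2 was the highest tumour, and the differences were -0.55 between PCL and MCL (SE 0.34, limma adjusted p = 0.35) and 0.48 between MCL and BL (SE 0.34, limma adjusted p = 0.529). Without MCL2 the MCL and BL difference was 0.10. Hist1h3g, whose hairpin has its own loop letters, had -0.62, 0.18, 0.94 and 0.14 log2 units in PCL, against -0.77, 0.28 and 0.25 in MCL and 1.32, 0.79, -0.01 and 0.85 in BL, with PCL1 and MCL1 the lowest of their types.

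The 7 H2a probes at the coding end varied little. Their signals lay between 7.71 and 8.68 log2 units over all probes and tumours, and the SD over the 11 tumours was 0.19 to 0.24, where the median SD was 0.53 over the Hist genes and 0.49 over all genes. The median of the mean levels was 1.75 over the Hist genes and -1.13 over all genes, so these SDs are not compared at equal brightness. Hist1h2ak, as an example, had 8.04, 7.84, 8.34 and 7.99 log2 units in PCL, against 7.84, 8.35 and 7.78 in MCL and 8.10, 7.82, 8.16 and 7.71 in BL. The types overlapped, and its differences were 0.06 between PCL and MCL (SE 0.21) and 0.10 between PCL and BL (SE 0.19). Correlations between the 7 profiles over the 11 tumours were 0.843 to 0.988, a description of probes that share most of their bases. A second probe of Hist1h2ak, outside the coding end, had 5.90, 5.89, 6.77 and 6.13 log2 units in PCL, against 5.50, 6.13 and 5.79 in MCL and 6.52, 6.24, 6.30 and 6.07 in BL.

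Most H4 genes had negative differences between MCL and BL, and none was called. Of all Hist genes 0 were called between MCL and BL (limma, against 6.62% of all genes, made up of 6.42% higher in MCL and 0.203% lower in MCL), although 7 of 48 had an unadjusted p under 0.05 (14.6%, against 18.4% of all genes), and 1, Hist2h4, was called in the authors' values and after normexp with quantile normalization. Of 9 H4 genes 8 had negative differences, with a median of -0.69, and 5 of 9 had an unadjusted p under 0.05, 4 of them lower in MCL and 1, Hist1h4h, higher. Without MCL1 the median was -0.40, with 6 of 9 negative. The H4 genes are not independent in these counts. The probes of Hist1h4c, Hist1h4d and Hist1h4j share 52, 48 and 46 bases with another Hist probe. These 3 probes and that of Hist1h4k each carry accessions of 2 to 4 RefSeq genes. The median of all genes between MCL and BL, 0.06 with scaling to the 75th percentile, was -0.19 with scaling to the array median, a shift of about the same size in every gene; the H4 median was -0.94 there, also with 8 of 9 negative.

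Hist4h4, an H4 gene apart from the larger clusters with its probe at chr6:136752681-136752740 on the minus strand of mm9, had 3.03, 3.32 and 3.90 log2 units in MCL, against 4.56, 4.02, 4.36 and 4.29 in BL. The 2 types did not overlap, and PCL spanned both with 3.81, 3.39, 4.35 and 3.83. The difference between MCL and BL was -0.89 (SE 0.27, limma adjusted p = 0.0881), and -0.70 without MCL1. Hist2h4 had 5.61, 5.83 and 6.36 log2 units in MCL, against 6.88, 6.45, 6.77 and 6.63 in BL (-0.75, SE 0.25, limma adjusted p = 0.126), and Hist1h4d did not overlap either (-0.81, SE 0.28, limma adjusted p = 0.134). A second, dimmer probe of Hist2h4, above background on all 11 arrays, had -3.40, -1.64 and -0.87 in MCL. In BL it had -1.49, 0.25, -1.51 and -1.86, so MCL and BL overlapped there, with a difference of -0.82. A second probe of Hist4h4 was above background on 0 arrays. Hist1h4k differed by -0.69 (SE 0.26) with overlap, and its probe carries accessions of 4 RefSeq genes. For Hist4h4, Hist2h4, Hist1h4d and Hist1h4k alike, MCL1 was the lowest and BL1 the highest of the 11 tumours. Whether their probes read the same transcripts was not tested, so these genes cannot be taken as separate observations.

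Hist1h4h went the other way. It had -2.57, -2.63 and -2.52 log2 units in MCL, against -3.09, -3.10, -2.97 and -2.89 in BL, and PCL with -2.53, -2.68, -2.64 and -2.78 was also above every BL. Its SD over the 11 tumours was 0.22, the smallest of the H4 genes, and its differences were 0.44 between MCL and BL (SE 0.14, limma adjusted p = 0.105) and 0.36 between PCL and BL (SE 0.13, limma adjusted p = 0.198). Its probe shares at most 25 bases with another Hist probe, and its accession names 1 RefSeq gene.

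**Figure D4:**
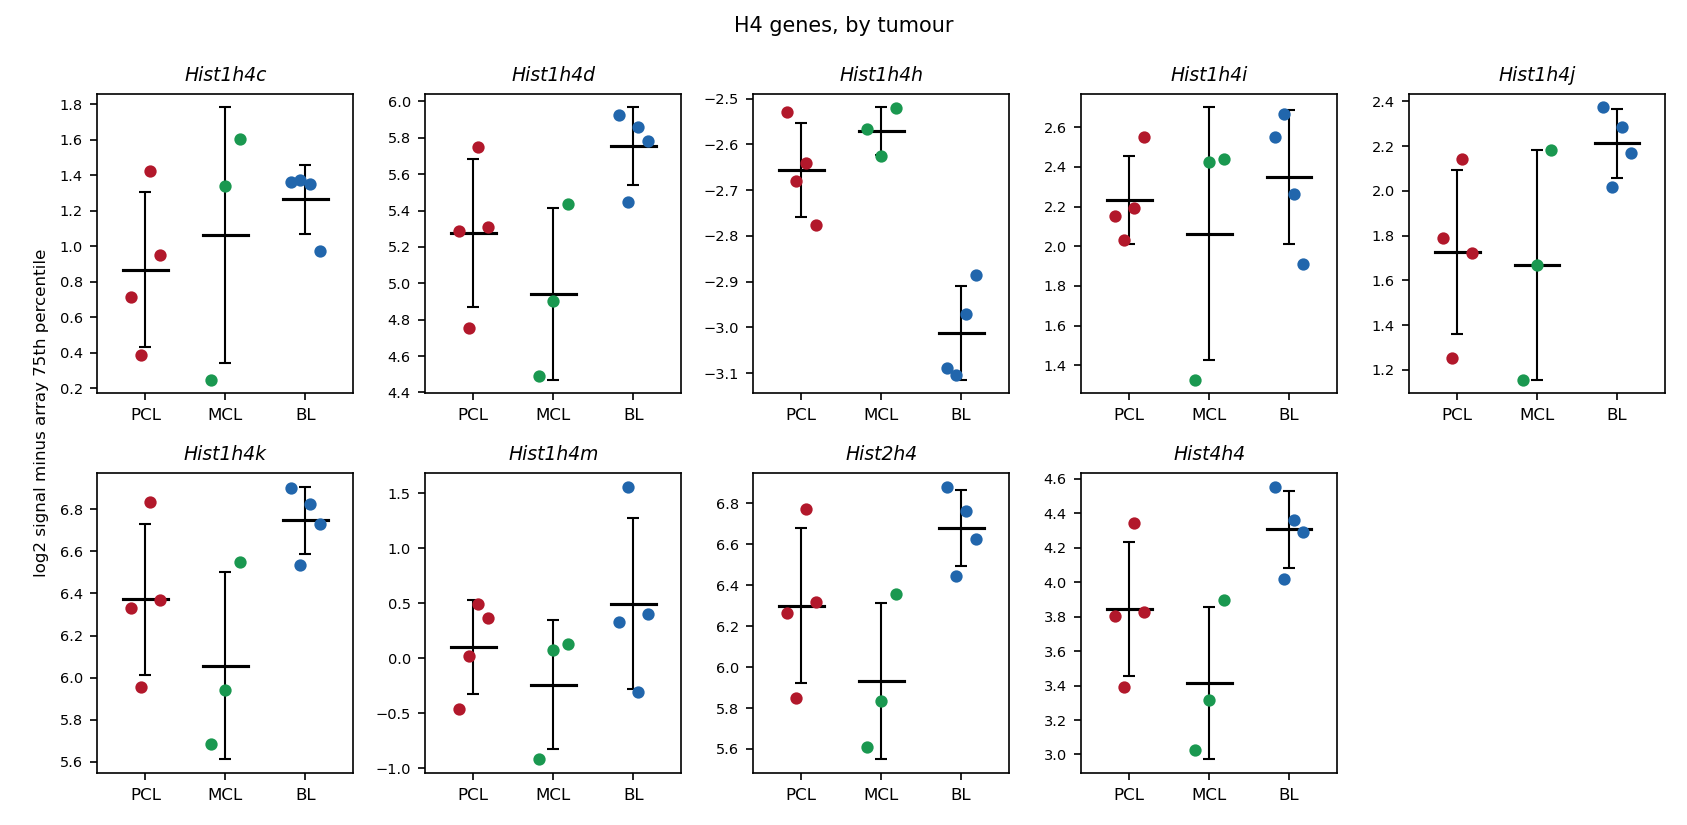
Log2 signal minus the array's 75th percentile (vertical axis, own scale for each gene) of the 9 H4 genes by lymphoma type; points are tumours, horizontal bars the mean and error bars the SD. For Hist1h4d, Hist2h4 and Hist4h4 every MCL point lies below every BL point, and for Hist1h4h every MCL and PCL point lies above the BL points.

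The other H1 genes overlapped between types. Hist1h1b, which encodes H1.5, had 3.59, 4.11, 4.95 and 4.47 log2 units in PCL, against 3.85, 4.72 and 4.38 in MCL and 5.05, 4.56, 4.74 and 4.57 in BL, and Hist1h1e, which encodes H1.4, had 4.88, 4.35, 5.003 and 4.37 in PCL, against 3.71, 4.31 and 4.42 in MCL and 5.16, 4.26, 4.35 and 4.71 in BL. Hist1h1a, which encodes H1.1, ranged over 2.07 log2 units, with MCL1 lowest and MCL2 highest.

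Some genes of the Hist1 cluster are known for their use in the testis. Hist1h1t, the testis H1, had -4.70, -4.25, -4.69 and -4.72 log2 units in PCL, against -4.46, -4.27 and -4.28 in MCL and -3.16, -4.04, -4.99 and -2.25 in BL. It was above background on all 11 arrays, and the BL spread over a wider range than the other types, with BL4 highest. Hist1h2aa, the testis H2A, had -2.44, -2.14, -1.51 and -1.41 log2 units in PCL, against -1.31, 0.22 and -1.15 in MCL and -1.02, -1.77, -1.92 and -2.10 in BL. Every PCL was below every MCL, the only such Hist gene, yet the difference of -1.13 was not called (SE 0.42, limma adjusted p = 0.138) and was -0.65 without MCL2. Hist1h2ba, the testis H2B, had differences of 0.52 between PCL and MCL and 0.17 between PCL and BL, with overlap.

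Promoters are described for 43 of 49 genes, from RefSeq windows of 300 bases in GRCm38.p6. The octamer ATTTGCAT, on either strand, known as an H2B promoter element bound by Oct factors, was present in 12 of 43 windows (27.9%), against 1.74% of all 32851 promoters of that length. It was in 7 of 14 H2a windows and 5 of 9 H2b windows, and in 0 of 6 H1, 0 of 6 H3 and 0 of 8 H4 windows. The H2b count depends on the window taken for Hist1h2be, which has 2. The first, which was counted, has no octamer, and the second, at chr13:23585921-23586220, has 1. Windows of facing genes overlap, so a site can be counted for both genes. Hist1h2ae and Hist1h2bg share their octamer in this way, as do Hist1h2aa and Hist1h2ba. CCAAT on either strand was in 86% of the Hist windows, against 37.4% of all promoters, with 2 of 8 among the H4 genes, and TATAAA on either strand in 60.5%, against 13.6%. None of these motifs contains another, neighbouring matches may share end bases, and a match describes only the window.

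Pairs of H2a and H2b genes start back to back. Hist1h2ba and Hist1h2aa also face each other, but no single window covers the stretch between their starts, which is not printed. In 2 pairs the window of the plus-strand gene alone covered the whole stretch between the gene starts. These 2 are printed here on the plus strand of GRCm38.p6, since 1 of the called genes is among them. CCAAT and the octamer, on either strand, are in capitals.
Hist1h2bp and Hist1h2an: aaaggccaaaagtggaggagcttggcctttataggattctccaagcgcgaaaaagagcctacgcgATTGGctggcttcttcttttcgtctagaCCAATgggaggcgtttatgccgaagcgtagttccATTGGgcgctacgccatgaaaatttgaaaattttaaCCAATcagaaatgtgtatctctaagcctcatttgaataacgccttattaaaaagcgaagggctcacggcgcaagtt
Hist1h2bg and Hist1h2ae: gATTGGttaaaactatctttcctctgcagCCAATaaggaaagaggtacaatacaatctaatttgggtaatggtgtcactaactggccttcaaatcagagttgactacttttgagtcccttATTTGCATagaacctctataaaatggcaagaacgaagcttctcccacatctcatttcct
The first stretch, chr13:21787249-21787487, has 239 bases with 4 CCAAT matches and no octamer. The signal of Hist1h2bp was higher in PCL than in MCL by 1.14, and that of Hist1h2an, on the other side of the same stretch, differed by 0.10, through a probe that shares most bases with those of other H2a genes. The second stretch, chr13:23571221-23571399, has 179 bases with 2 CCAAT matches and 1 octamer, and its genes Hist1h2bg and Hist1h2ae differed by 0.26 and 0.20.

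Probes in which all 3 reading frames hold a stop codon lie at least in part outside coding sequence, and 7 tested Hist genes have such a probe, Hist1h2bc and Hist1h2bq among them. The median difference over these 7 was 1.19 between PCL and MCL, 0.88 between PCL and BL and -0.18 between MCL and BL, against 0.10, -0.12 and -0.22 over the other 41. Without MCL1 the medians between PCL and MCL were 0.48 over the 7 and -0.07 over the 41. This division was chosen after the values were seen and has no test. Of the 7, 2 were called between PCL and MCL (28.6%, against 6.85% of all genes) and 1 between PCL and BL (14.3%, against 0.659% of all genes). These shares rest on 1 or 2 genes. Stops in all 3 frames were held by 14.8% of the Hist probes and 20.4% of all probes. The other 41 are not all coding probes, as that of Hist2h2aa1 lies mostly downstream of the hairpin.

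The median level of the Hist genes varied between tumours of 1 type. The median signal of the 48 genes, each centred on its own mean, was -0.09, -0.15, 0.44 and -0.01 in PCL, against -0.82, 0.22 and -0.07 in MCL and 0.17, 0.10, 0.09 and -0.10 in BL. PCL3 was highest and MCL1 lowest. The same median over 44 genes of S phase and DNA replication was -0.22, -0.06, 0.06 and -0.11 in PCL, against -0.45, 0.22 and 0.05 in MCL and 0.17, 0.38, -0.04 and 0.19 in BL. MCL1 was the lowest tumour by that list too, and by 21 genes of G2 and mitosis, at -0.70.

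**Figure D5:**
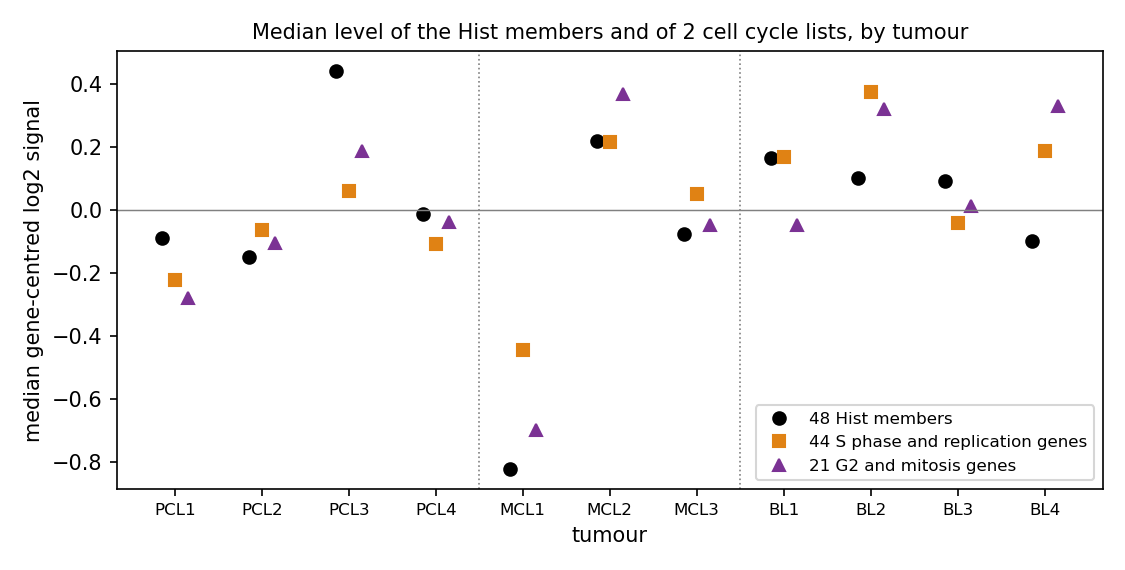
Median gene-centred log2 signal (vertical axis) of the 48 Hist genes, of 44 S phase and replication genes and of 21 G2 and mitosis genes in each tumour (horizontal axis, by type). MCL1 is lowest for all 3 sets, at -0.82, -0.45 and -0.70, and PCL3 is highest for the Hist genes at 0.44 and not for the other 2 sets.

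Genes that make and handle histone mRNA and protein were compared as lists. Of 29 measured genes of histone mRNA transcription and processing, 0 were called between PCL and MCL and 0 between PCL and BL, and 1 was called between MCL and BL. That was Sympk, encoding the scaffold symplekin of the 3' end cleavage complex, which had 1.94, 2.22 and 2.22 log2 units in MCL, against 2.68, 3.09, 2.88 and 2.94 in BL (-0.77, SE 0.19, limma adjusted p = 0.0395). The median of the list was 0.28 between PCL and MCL, -0.09 between PCL and BL and -0.28 between MCL and BL, where 25 of 29 were negative. Slbp itself differed by 0.25, -0.42 and -0.67 in these comparisons and was not called (limma adjusted p = 0.626, 0.448 and 0.232).

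Of 27 histone chaperone genes 0 were called in any of the 3 comparisons, with medians of 0.02, -0.12 and -0.06. Of 44 S phase genes, 1 was called in the 3 pairwise comparisons, Ccne1, which encodes cyclin E1 and was lower in PCL than in MCL (-1.30, SE 0.29, limma adjusted p = 0.0314). The test among 3 types called Ccne1 and also Pold1, which encodes the catalytic subunit of DNA polymerase delta (limma adjusted p = 0.0392). Of 15 histone genes outside the Hist names, H1f8, the oocyte linker histone, was lower in PCL than in MCL (-1.49, SE 0.21, limma adjusted p = 0.0064) and higher in MCL than in BL (1.42, SE 0.21, limma adjusted p = 0.00591). Macroh2a2, a replacement H2A, was also higher in MCL than in BL (0.62, SE 0.15, limma adjusted p = 0.0352).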

How the data were processed

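RNA of 11 tumours was labelled with Cy3, 0.2 µg each, per the labels. The authors ran Agilent Feature Extraction, version 10.7.3.1 per the file headers. The processed signal in these deposited files is an intensity on a linear scale, detrended within the array and not normalized between arrays. The raw mean and background intensity columns, as deposited, served an alternative. The authors' deposited value table appears from its values to hold log2 signals normalized between arrays; the sources used here do not give its making.

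Non-control spots without outlier flags were averaged per probe. From each array's log2 processed signals its own 75th percentile was subtracted. A probe had to be well above background on 3 arrays or more, which 25296 probes met. The brightest probe stood for a gene, leaving 20181 genes. The test was limma's (version 3.58.1, R 4.3.3) over all 11 arrays with a mean per type (8 residual and 2.01 prior degrees of freedom) and adjusted by Benjamini-Hochberg over all genes. The procedure was tested on simulated data. Arrays have no read depth, so precision is set by how many there are.

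The text names the genes called, those with the largest differences or spread, and the brightest and dimmest of each class. Others, such as Hist1h4d, Hist1h2be and Slbp, were named after their values were seen. The members and all gene lists were chosen with earlier results of these data known. Where RefSeq gave 2 promoter windows for a gene, the first was counted. Replicate numbers are array positions on a slide. Same-numbered tumours of different types correlated at -0.0463 to 0.172 in their deviations from the type means, with a median of 0.088. For differently numbered tumours the range was -0.237 to 0.17, with a median of -0.019. Beyond the fit with array position as a replicate block, given below, an effect of position was not tested. Alternatives changed the background correction, scaling, filter, choice of probe, weights or tumours used. Probe coordinates are mm9, per the file headers.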

Additional observations from a re-analysis of the deposited data

Results flagged for a closer look

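In 2 of 58 groups of 4 tumours, 1 tumour stood far from the others, and chance flags about 1 in 20 such groups. For Hist1h1c, PCL1 had 1.72 log2 units while the other PCL had 3.27 to 3.53. For Hist1h1t, PCL2 had -4.25 log2 units while the other PCL had -4.72 to -4.69.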

How the results depend on the processing

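Of 20 alternative settings, all kept the direction of each gene difference recomputed for the named Hist genes, and Hist1h2bc between PCL and MCL lost its call in 1, the fit with array position as a replicate block (limma adjusted p = 0.0613). Hist1h2bc between PCL and BL lost its call in 9 settings (adjusted p up to 0.135). Between PCL and MCL, Hist2h2aa1 lost its call in 9, Hist1h2bp in 12 and Hist1h2bq in 15 of 19; its probe did not pass the filter on all arrays. The cause was not tested. Leaving out 1 tumour in turn gave 1 to 5 Hist genes called between PCL and MCL, 0 to 4 between PCL and BL and 1 to 5 in the test among 3 types, against 4, 1 and 3. Leaving out PCL1 gave the highest of each range. The median difference of the Hist genes ranged from -0.549 (without MCL2) to 0.041 (without MCL1) between MCL and BL. Over all genes, leaving out 1 tumour gave 330 to 2455 calls between PCL and MCL (1383 with all tumours), 5 to 1079 between PCL and BL (133), 683 to 1365 between MCL and BL (1336) and 711 to 2813 among 3 types (1690).

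With the replicate block 0 Hist genes were called in each comparison and in the test among 3 types. Of all genes, 390 were called in PCL against MCL, 65 in PCL against BL, 361 in MCL against BL and 342 among 3 types. With array weights 7 Hist genes were called between PCL and BL and 6 among 3 types, and 4433, 2181 and 4751 of all genes between PCL and MCL, between PCL and BL and among 3 types. Normexp with quantile normalization called 2 Hist genes between PCL and MCL and 1 between MCL and BL, and 716 of all genes between MCL and BL. Scaling to the array median called 2 Hist genes between PCL and MCL and 2 between PCL and BL, and 531 of all genes between PCL and BL and 300 between MCL and BL. The authors' values called 2 Hist genes between PCL and MCL, 2 between PCL and BL and 1 between MCL and BL, and 680 of all genes between MCL and BL. Without the filter on dim probes 1 Hist gene was called between PCL and MCL and 0 between PCL and BL, and 686, 85 and 1042 of all genes were called between PCL and MCL, between PCL and BL and among 3 types. Quantile normalization alone called 771 of all genes between MCL and BL. Between PCL and BL, 92 of the 133 genes called were higher in PCL, against 109 of 531 with scaling to the array median, 55 of 95 with quantile normalization, 72 of 137 with normexp and quantile normalization and 84 of 166 in the authors' values. On each array 21.5% to 29.2% of values are the software's substitutes where a spot was not above background, which limits dim probes such as that of Hist1h2bq.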

Other observations

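Hist1h2bg, an H2B gene, had -0.52, 0.52, -0.05 and 0.59 log2 units in PCL, against -1.11, -0.27 and 1.01 in MCL and 0.46, -0.66, -0.01 and -0.67 in BL, so that the 3 types overlapped. Hist3h2a, the H2A gene of the Hist3 cluster, had 0.26, 1.51, 1.78 and 2.12 in PCL, against 0.24, 1.86 and 0.89 in MCL and 0.56, 0.74, 0.96 and 0.81 in BL, and PCL1 was again below the other PCL. Hist2h2bb, an H2B gene whose probe holds the hairpin, had 1.71, 0.83, 1.85 and 1.03 in PCL, against 0.57, 2.28 and 1.81 in MCL and 2.12, 2.98, 1.93 and 2.07 in BL. Every PCL was below every BL for Hist2h2bb, and the difference of -0.92 was not called (limma adjusted p = 0.273). Hist2h2ab, an H2A gene, had differences of -0.83 between PCL and BL and -0.90 between MCL and BL, and was not called. MCL and BL did not overlap but nearly met, with MCL2 at -3.572 and BL1 at -3.561 log2 units.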
